A study of Mus musculus with 12 samples.

Results

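The members described here are the nuclear genes of oxidative phosphorylation, 98 of the 24538 gene rows that the deposited count tables share. They were taken by name: symbols that start with Nduf, Sdha, Sdhb, Sdhc, Sdhd, Uqcr, Cox4i, Cox5, Cox6, Cox7, Cox8 or Atp5, and Cyc1. By complex they comprise 46 genes of complex I, 8 of complex II, 9 of complex III, 18 of complex IV and 17 of complex V. Complexes were assigned by symbol, which puts Ndufa4 in complex I. By role, 82 are subunits, 12 are assembly factors of complexes I and II (the Ndufaf and Sdhaf genes), 1 is a further isoform (Ndufa4l2), 1 is the supercomplex factor Cox7a2l, and Atp5s and Atp5sl only carry the family's older names. The 13 subunits encoded by mitochondrial DNA were not analysed here.

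RNA was sequenced from LSK cells, the marrow fraction that lacks lineage markers and carries both Sca-1 and Kit, and from cells labelled MPP (multipotent progenitors), of wild-type (WT), Tet2 KO and Tet2 Mut mice. All mice were aged 10 weeks and of a mixed 129/C57/B6 strain. Marrow of 2 mice was pooled per genotype, and each of the 6 groups has 2 technical replicate libraries, so SDs and p-values say how far libraries made from the same pool differ, not how far mice do. The changed residues of Mut, the KO allele and the gates of MPP are not given in the sources used here, and the titles call the MPP libraries Lin.

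Oxidative phosphorylation passes electrons from NADH (complex I) and succinate (complex II) through ubiquinone to complex III, cytochrome c and complex IV, where oxygen is reduced. Complexes I, III and IV pump protons across the inner mitochondrial membrane, and complex V, the ATP synthase, uses the gradient to make ATP. Blood stem cells are known for a low reliance on this pathway when at rest, and for a rise in it as they divide and differentiate.

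Gene counts ran from 9181027 to 23532847 per library, so that a count of 0 allows a level of up to 0.327 to 0.127 CPM, the count in every 1000000 of a library's scaled total (floor of 3 counts, counting error only). Kit was at 594 ± 33.1 CPM in LSK WT and 207 ± 38.1 in MPP WT (SD, n = 2), and the Sca-1 gene Ly6a was at 75.8 ± 24.7 and 17.4 ± 0.193. The LSK gate list of 5 markers (Kit, Ly6a, Ly6e, Cd34 and Flt3) differed less, with sums of 3204 to 3223 CPM in LSK WT and 2730 to 2801 in MPP WT. Cd34 and Flt3 were higher in LSK WT too, but Ly6e, the rest of the sum, was lower. The stem cell list of 8 markers summed to 457 to 778 CPM in LSK libraries and 64.1 to 120 in MPP libraries. The granulocyte-monocyte list of 7 markers summed to 2075 to 6051 CPM in LSK and 46450 to 61229 in MPP, led by Mpo at 37445 ± 952 CPM in MPP WT. Erythroblast markers reached 519 CPM in MPP KO, with the 4 haemoglobin rows at 0 in all libraries, and the B cell, T and NK cell, macrophage and stroma lists stayed at or below 115 CPM each. Tet2 was at 74.9 ± 17.4 CPM in LSK WT, 30.4 ± 1.82 in KO and 43.9 ± 0.639 in Mut (SD, n = 2), and at 34.5 ± 7.21, 34.9 ± 0.00962 and 38.8 ± 1.97 in the libraries labelled MPP WT, KO and Mut, so that its counts do not set the MPP genotypes apart.

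The LSK WT libraries stood apart. Across the members tested, their log2(CPM + 1) values correlated at r = 0.958 between the libraries, against 0.991 to 0.994 within the other 5 groups (a description across genes). Rn45s, the precursor of ribosomal RNA, made up 3.67% ± 0.0354 of LSK WT counts (SD, n = 2), 2.49% ± 0.0283 of LSK KO and 1.04% ± 0.0771 of LSK Mut, against means of 0.938% to 1.06% in the MPP groups. The part of these differences in the results below was not tested, but every count of members called was the same without the rows of Rn45s and Lars2.

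The count tables do not measure every member equally well. Of the 98 members, 9 have a copy elsewhere in the mouse genome that matches at least 99% of their whole coding sequence, most of these copies being processed pseudogenes, which are reverse-transcribed copies without introns. Per kilobase (kb) of annotated exon, 7 of these 9 lay below the lowest of the 66 other subunits compared, Ndufs3, at 38.9 CPM per kb (median of the 66, 260.1 CPM per kb). The 7 were Atp5g1 (29.0 CPM per kb), Atp5l (19.7), Cox7c (10.9), Ndufb4 (6.30), Ndufab1 (5.70), Atp5g2 (3.56) and Ndufs5, which had 0 counts in all 12 libraries. Cox5b (75.4 CPM per kb) and Cox7a2l (118.6 CPM per kb) lay within the range of the others. The 66 leave out the lesser isoforms Cox4i2, Cox6a2, Cox6b2, Cox7a1, Cox7b2, Cox8b and Cox8c, and Atp5o, which has no annotated length. These isoforms have no near copy, yet all but Cox6b2 lay below Ndufs3 too, from Cox6a2 at 12.0 CPM per kb to Cox7b2, Cox8b and Cox8c at 0. Atp5g1 and Ndufab1 were divided by long annotated exons (4912 and 4387 bp), which lowers their levels per kb. Cox7c and Ndufs5 are shown with a copy each because both copies have rows of their own in the tables. The coding sequence of Cox7c (chromosome 13) is given in full with that of Gm10012 (chromosome 17), and bases 21 to 140 of Ndufs5 (chromosome 4) with those of BC002163 (chromosome 16), from GENCODE M21 transcripts. Capitals mark the bases that differ, which are G30C and G107A for Cox7c and T81C and A105G for Ndufs5, counted from the first coding base.
Cox7c: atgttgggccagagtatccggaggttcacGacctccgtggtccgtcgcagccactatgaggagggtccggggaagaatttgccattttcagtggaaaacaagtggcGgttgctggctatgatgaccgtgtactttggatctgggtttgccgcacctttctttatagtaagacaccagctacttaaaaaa
Gm10012: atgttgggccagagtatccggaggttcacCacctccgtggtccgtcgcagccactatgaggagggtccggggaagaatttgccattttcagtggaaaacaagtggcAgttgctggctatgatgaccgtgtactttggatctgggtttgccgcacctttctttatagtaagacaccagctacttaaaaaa
Ndufs5: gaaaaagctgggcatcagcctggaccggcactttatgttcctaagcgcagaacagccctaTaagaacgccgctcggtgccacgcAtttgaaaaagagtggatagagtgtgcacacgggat
BC002163: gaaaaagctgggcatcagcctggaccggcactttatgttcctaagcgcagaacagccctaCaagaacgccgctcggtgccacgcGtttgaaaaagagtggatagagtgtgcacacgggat

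The row of BC002163 held 98.9 to 139 CPM in the 12 libraries, while the row of Ndufs5, an accessory subunit of complex I, held none. Gm12338, a copy whose coding bases are identical to those of Cox7c, held 205 to 334 CPM, against 8.26 to 23.8 for Cox7c, a small subunit of complex IV, and at most 0.717 CPM for Gm10012. Which locus these reads came from cannot be told from the tables, so the 9 members are uncertain, and values of Atp5g1 and Cox7a2l below carry that limit. A further 13 members have copies that match at lower identity, among them Cox7b, Cox6c, Atp5f1, Ndufa12, Ndufs3 and Uqcr11.

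**Figure D1:**
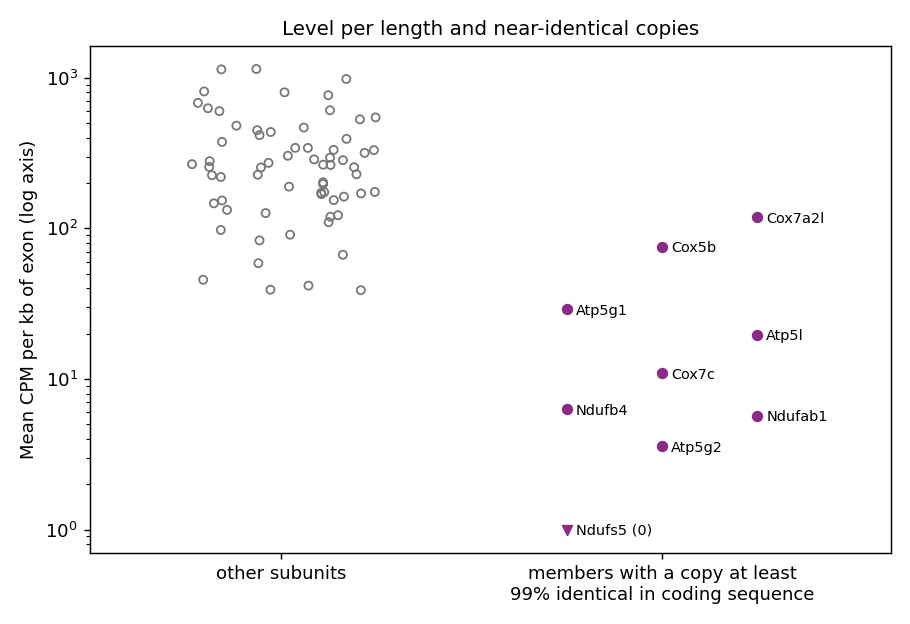
Mean level over the 6 groups, in CPM per kb of exon on a log axis, for the 66 other subunits compared (open points) and the 9 members with a copy at least 99% identical over the coding sequence (filled, named). Ndufs5, at 0, is drawn as a triangle at the bottom, and 7 of the 9 lie below all open points, the lowest of which is Ndufs3 at 38.9 CPM per kb. The open points leave out the lesser isoforms Cox4i2, Cox6a2, Cox6b2, Cox7a1, Cox7b2, Cox8b and Cox8c, all but Cox6b2 being below Ndufs3.

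Promoter sequence was compared with the binding motifs of factors known to act on these genes: NRF1 (nuclear respiratory factor 1), the ETS family that includes GABP, and YY1. Over the 250 bases before the RefSeq start (GRCm38.p6), on both strands, the NRF1 core GCGCATGC was found for 9 of the 81 members with a promoter entry (11.1%), against 2.56% of 27025 genes. The ETS core CCGGAAG was found for 16 (19.8%) against 7.83%, and the YY1 core AAGATGGC for 2 (2.47%) against 1.83%. A promoter with several matches was counted once. The 27025 genes were not limited to genes expressed in these cells or matched for base composition, so the shares do not set the members apart from other expressed genes. Bases after the start were not searched, so a low share, as for YY1, does not say that a core is absent near the start. Of the 24 members with an entry that were called lower in LSK than in MPP of WT (below), 1 held the NRF1 core and 5 the ETS core, against 8 and 11 of the other 57. The first 3 sequences below belong to members that were lower in LSK than in MPP of each genotype relative to all genes (and higher by spike-in scaling), the fourth to a member that was higher in WT and KO, and the last 2 hold NRF1 cores. Each is the 150 bases just before the gene's start in the GENCODE M21 annotation, 5′ to 3′ on the gene's strand, from the RefSeq promoter table: Uqcrc1 at chr9:108936483-108936632 (plus strand), Cox7b at chrX:106015550-106015699 (plus), Atp5b at chr10:128083123-128083272 (plus), Uqcrh at chr4:116075072-116075221 (minus), Ndufa6 at chr15:82354323-82354472 (minus) and Ndufaf4 at chr4:24897933-24898082 (plus). Capitals mark matches, an ETS core in Uqcrh and NRF1 cores in Ndufa6 and Ndufaf4.
Uqcrc1: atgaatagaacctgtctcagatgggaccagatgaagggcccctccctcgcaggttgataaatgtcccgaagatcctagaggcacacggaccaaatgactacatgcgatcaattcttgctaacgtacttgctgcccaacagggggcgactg
Cox7b: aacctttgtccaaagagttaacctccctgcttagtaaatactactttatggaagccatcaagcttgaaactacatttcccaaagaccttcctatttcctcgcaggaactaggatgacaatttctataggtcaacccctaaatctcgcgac
Atp5b: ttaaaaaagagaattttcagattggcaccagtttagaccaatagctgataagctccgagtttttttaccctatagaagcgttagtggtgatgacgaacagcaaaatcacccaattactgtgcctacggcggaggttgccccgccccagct
Uqcrh: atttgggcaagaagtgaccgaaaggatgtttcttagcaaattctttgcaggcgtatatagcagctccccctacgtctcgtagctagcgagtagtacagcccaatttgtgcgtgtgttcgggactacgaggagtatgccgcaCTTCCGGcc
Ndufa6: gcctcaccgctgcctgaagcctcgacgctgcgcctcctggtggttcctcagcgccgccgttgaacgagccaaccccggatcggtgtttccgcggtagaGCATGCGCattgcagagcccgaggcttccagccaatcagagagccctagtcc
Ndufaf4: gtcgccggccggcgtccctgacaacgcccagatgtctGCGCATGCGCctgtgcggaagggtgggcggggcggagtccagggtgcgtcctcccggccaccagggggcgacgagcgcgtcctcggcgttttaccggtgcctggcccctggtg

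A match is a description of these letters and not a site, and the 3 promoters without capitals hold none of the 3 cores in the window printed.

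Levels per kb spread widely among the members. The highest, as a mean over the 6 groups, were Cox4i1 (1146 CPM per kb), which binds the catalytic core of complex IV, Atp5b (1139), the catalytic beta subunit of the ATP synthase, Ndufa4 (983) and Atp5g3 (812). Of the 97 members with an annotated length, 59 were above 100 CPM per kb and 19 below 20. A list of 17 core subunits holds subunits that bear cofactors or catalyse, with some that border the catalytic core. The list is not complete: Ndufv2, Sdhc, Sdhd and Uqcrc2 are not on it and count among the other subunits below. Core against other is thus a split by this list, not between catalytic and accessory subunits. The list was chosen with earlier results of these data known. Of its members in complex I, 5 were at 38.9 (Ndufs3), 58.8 (Ndufs1), 146.8 (Ndufv1), 174.8 (Ndufs8) and 264 CPM per kb (Ndufs7). Sdha and Sdhb of complex II were at 170.8 and 256.1 CPM per kb, and Uqcrfs1, Cyc1 and Uqcrc1 of complex III at 153.3, 229 and 437. Cox5b and Cox5a of complex IV were at 75.4 and 682 CPM per kb, and Atp5c1 and Atp5a1 of complex V at 273 and 468. Complex I thus held the lowest of the core levels, and the ATP synthase and complex IV the highest.

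In all isoform families but 1, a single member made up at least 86.4% of the level per kb in each library. Cox4i1 took 99.6% to 100% of the Cox4i family in every library, with Cox4i2, the isoform of lung and hypoxia, at 269 counts over all libraries. Cox6a1 took 97.4% to 99.7% against the muscle form Cox6a2, Cox6b1 86.4% to 94.1% against Cox6b2, known from testis, and Atp5g3 94.8% to 97.3% of the family of the ATP synthase c-ring. The share of Atp5g3 is uncertain, since Atp5g1 and Atp5g2 have near copies and Atp5g1 was divided by 4912 bp of exon against 724 bp. Not divided by length, Atp5g1 was at 142 CPM and Atp5g3 at 588, as means over the 6 groups. Cox7b2, Cox8b and Cox8c had 0 counts in all libraries. Cox7a1, the muscle form of Cox7a, had 0 counts in both LSK WT libraries and 209 over all 12, so its fitted differences are no measure of size. The exception was the Cox7a family, where Cox7a2 led and Cox7a2l, which ties complexes III and IV into supercomplexes, took 31.6% per kb in LSK WT, with 29.5% for KO and 23% for Mut, but 14.6%, 10.9% and 12.5% in the MPP groups. Cox7a2l itself has a near copy and is uncertain.

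Of the 98 members, 93 passed the filter on low counts in each of the fits, and Cox7b2, Cox8b, Cox8c, Ndufa4l2 and Ndufs5 did not. The members were compared with edgeR's quasi-likelihood test, adjusted by Benjamini-Hochberg over all genes tested, and a member is said to be called at an adjusted p below 0.05. Libraries were scaled by TMM (trimmed mean of M values), which takes the bulk of genes as level, so each log2 difference is relative to that bulk. In bulk samples, fewer cells of a type and less RNA per cell cannot be told apart.

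The comparison of LSK with MPP called the most members. Relative to all genes, 32 members in WT, 17 in KO and 9 in Mut were called lower in LSK, most of them subunits of complexes I, II, III and V, while scaled by the ERCC spike-ins (synthetic RNAs added to the samples) every member called was higher in LSK. The median of all genes tested moved by 4.17, 4.66 and 5.88 (log2) in WT, KO and Mut under that scaling, and 91, 93 and 93 members were then called higher and 0 lower, against 6 of 38, 4 of 21 and 1 of 10 called by TMM. Most genes were called with them: 11550, 12011 and 12570 of the 14033 tested, either way. The amount of spike-in per cell is not given in the sources used here. Set against the median of all genes, the members' median log2 difference was -0.35 in WT, -0.19 in KO and -0.24 in Mut by TMM, and -0.33, -0.19 and -0.22 by spike-ins.

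In WT by TMM, 32 of 93 members were called lower and 6 higher in LSK than in MPP (34.4% and 6.45%), where 13.7% and 10.2% of all genes tested were. All 4 subunits of complex II were lower (higher by spike-ins, like each member below), as were 5 of 9 of complex III, 9 of 15 of complex V and 12 of 36 of complex I, but 1 of 14 of complex IV. Of the 17 core subunits 12 were lower and 1, Cox4i1, was higher. Of the 12 assembly factors 1, Ndufaf1, was lower. Uqcrc1 (chr9:108936633-108949623, GRCm38), a core protein of complex III, was at 312 and 327 CPM in LSK WT and at 1016 and 1098 in MPP WT. That is 3.31-fold lower (log2 -1.72, SE 0.107, edgeR adjusted p = 1.5e-06), with no overlap. Cox7b (chrX:106015700-106022450), a small subunit of complex IV whose copies elsewhere make its level less certain, was at 140.0 and 155 CPM against 389 and 429. It was 2.77-fold lower (log2 -1.47, SE 0.124, edgeR adjusted p = 1.31e-05). It was the single subunit of complex IV called lower in WT. Cyc1 (chr15:76343523-76346260), which carries the haem of cytochrome c1, was at 201 and 194 CPM against 460 and 478 (2.37-fold lower, edgeR adjusted p = 2.44e-05). Atp5b (chr10:128083273-128090391) was at 1325 and 1155 CPM against 2803 and 2913 (log2 -1.21, SE 0.0713, edgeR adjusted p = 1.18e-06). Each of these genes had all its LSK WT values below all its MPP WT values by TMM, which the rule for naming required of all but Atp5b. Each was higher in LSK by spike-ins. Atp5c1, the gamma shaft of the ATP synthase, was 2.40-fold lower, and Ndufa10, an accessory subunit of complex I, 2.69-fold. Ndufaf1, a chaperone of complex I assembly, was 5.75-fold lower, but its LSK WT libraries differed widely, at 12.98 and 2.311 CPM against 44.8 and 42.5 in MPP (log2 SE 0.623).

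The markers of other progenitors moved with this comparison. The granulocyte-monocyte list summed to 2075 to 2484 CPM in LSK WT and 58029 to 61229 in MPP WT, the megakaryocyte-erythroid list of 6 markers to 629 to 724 and 2058 to 2478, and the neutrophil list of 6 to 97.9 to 169 and 2060 to 2155. Between 12470 and 12614 genes had a count in the LSK WT libraries and 13333 to 14264 in the others. The part of cell composition and of library quality in the members' differences was not tested.

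The 6 members called higher in LSK WT were Cox7a2l, Uqcrh, Ndufa2, Ndufa5, Cox4i1 and Cox6c, of which only Cox4i1 is on the core list, and these were higher by spike-in scaling too. Cox7a2l (chr17:83501918-83517330) was at 187 and 244 CPM in LSK WT and 105 and 104 in MPP WT (2.06-fold higher, edgeR adjusted p = 0.00168). Uqcrh (chr4:116066965-116075071), the hinge protein of complex III that binds cytochrome c1, was at 375 and 466 CPM against 232 and 235 (1.80-fold, edgeR adjusted p = 0.000951). Ndufa2, an accessory subunit of complex I, was at 455 and 463 CPM against 276 and 250 (1.75-fold, edgeR adjusted p = 0.000694). None of the 3 overlapped between LSK and MPP of WT. Cox4i1 was 1.33-fold higher, Ndufa5 1.43-fold and Cox6c 1.27-fold. In complex III the core protein Uqcrc1 thus lay below the bulk of genes and the hinge protein above it. By spike-ins both were higher in LSK than in MPP, Uqcrc1 by less than the bulk (2.47 against 4.17 on the log2 scale) and Uqcrh by more. The count of 38 members called was 21 without MPP WT replicate 2 and 14 when the spread came from WT libraries alone. Cox6c lost its call without 11 of the 12 libraries in turn, Ndufa5 without 9 and Cox4i1 without 1.

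In KO, 17 members were called lower and 4 higher in LSK (18.3% and 4.30%, against 8.14% and 7.03% of all genes), and in Mut 9 lower and 1 higher (9.68% and 1.08%, against 5.21% and 3.55%). Of the 35 members called lower in at least 1 genotype, 6 were called in all 3: Uqcrc1, Cyc1, Cox7b, Atp5b, Atp5g1 and Atp5f1. In Mut, Atp5g1 lost its call without 10 of the 12 libraries in turn (all but those of LSK WT), Uqcrc1 without 3 (LSK Mut replicate 1 and both of MPP Mut) and Cox7b without 1 (LSK Mut replicate 1). Uqcrc1 was at 498 and 452 CPM in LSK KO against 956 and 1004 in MPP KO, and at 557 and 672 in LSK Mut against 883 and 891 in MPP Mut. The log2 difference was -1.04 (SE 0.105) in KO and -0.53 (SE 0.104) in Mut, without overlap in either. Cyc1 differed by -1.22 (SE 0.113) in KO and -0.73 (SE 0.112) in Mut, Cox7b by -1.04 (SE 0.122) and -0.69 (SE 0.121). Atp5g1, of the c-ring, differed by -1.07 (SE 0.183) and -0.70 (SE 0.182), with the limit set by its copy. Scaled by spike-ins each of these 4 was higher in LSK. Ndufa10 and Uqcrc2, the second core protein of complex III, were lower in KO by 0.89 and 0.84 on the log2 scale, and Uqcrq and Uqcr11, small subunits of complex III, were 1.58-fold and 1.49-fold lower in Mut, all 4 being higher by spike-ins.

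Cox7a2l was again higher in LSK of KO, at 179 and 210.0 CPM against 88.8 and 100.1 (2.06-fold, edgeR adjusted p = 0.00268), and so were Uqcrh (1.49-fold) and Sdhaf4, an assembly factor of complex II (1.88-fold, edgeR adjusted p = 0.0437). In Mut, Cox7a2l was at 110.4 and 126 CPM against 91.8 and 82.8 and was not called (edgeR adjusted p = 0.158), and Sdhaf4 (1.74-fold) and Atp5s (1.68-fold) were not called either. Ndufa4, long counted to complex I and now known to bind complex IV, was called higher in KO and Mut (1.40-fold and 1.35-fold). By its symbol it is counted with complex I in the counts, sums and figures here. Sdhaf4 lost its call in KO without 10 of the 12 libraries in turn (all but those of LSK WT), and at an edgeR adjusted p = 0.069 with no filter on low counts. Uqcrh and Ndufa4 lost theirs in KO without LSK KO replicate 1 or either library of MPP KO, and Ndufa4 its call in Mut without 8 libraries (all but those of LSK WT and LSK KO). Of the members named as lower, Uqcrc2 in KO lost its call without any library of KO, Ndufa10 without replicate 1 of LSK KO or MPP KO, and in Mut Uqcrq and Uqcr11 without replicate 1 of LSK Mut or MPP Mut, Uqcr11 also without MPP Mut replicate 2. In KO the count of 21 members was 12 without LSK KO replicate 2 and 11 without MPP KO replicate 1 or 2. In Mut the count of 10 was 2 and 6 without LSK Mut replicate 1 and 2, 3 and 4 without MPP Mut replicate 1 and 2, 6 without any library of MPP WT or MPP KO, and 17 with DESeq2.

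**Figure D2:**
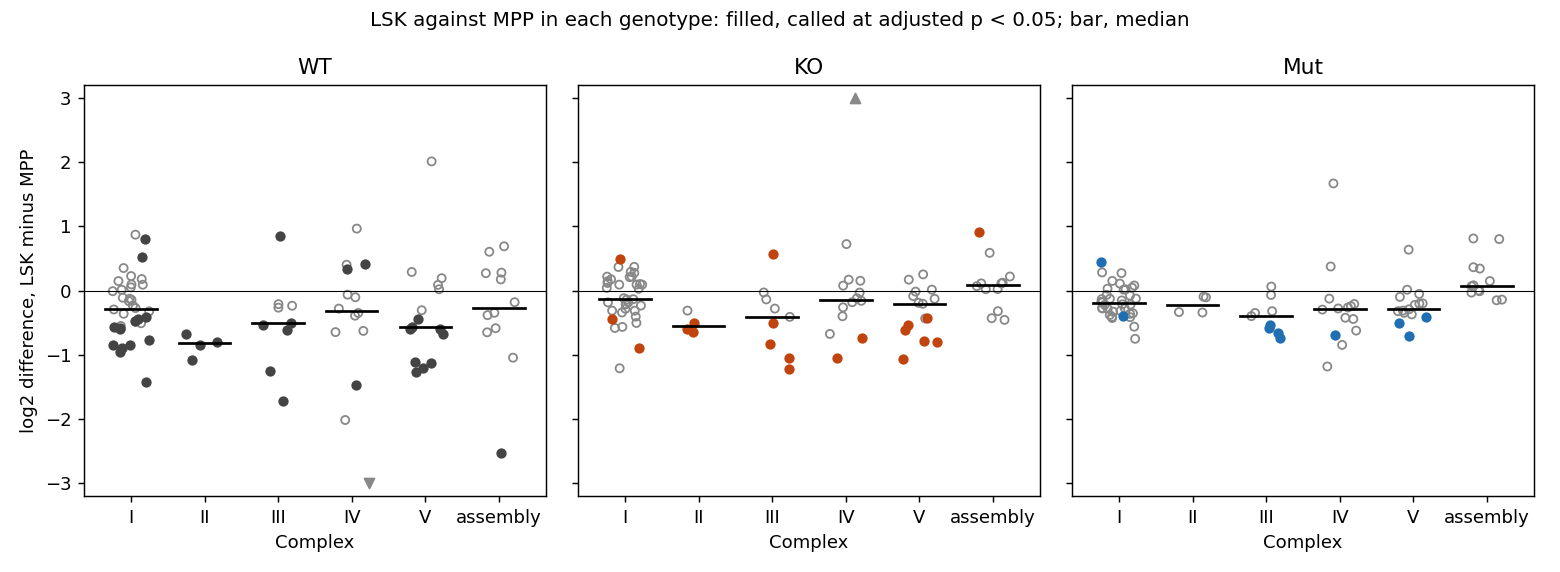
Log2 difference of LSK from MPP for each subunit by complex, and for the assembly factors, in WT, KO and Mut (TMM scaling; filled points were called, bars are medians, triangles lie beyond the axis). Complex II in WT has all 4 subunits below 0 with a median of -0.82, against -0.55 in KO and -0.22 in Mut. Scaled by spike-ins, nearly all points would lie above 0.

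Other genes of mitochondrial energy metabolism, grouped in lists, were in part lower in LSK relative to all genes, and higher when scaled by spike-ins (all genes of the 5 lists except Mrps22 in WT). In WT, 14 of 18 genes of the tricarboxylic acid cycle were called lower and 0 higher, with a median log2 difference of -0.85, led by Suclg1 of succinyl-CoA synthetase (3.12-fold) and Idh3a of isocitrate dehydrogenase (3.04-fold). The counts were 10 and 0 in KO (median -0.73) and 5 and 0 in Mut (median -0.47). Of 19 electron carriers and exchangers of ATP, 9 were lower and 2 higher in WT, 6 and 1 in KO, and 2 and 0 in Mut, where Slc25a5, the ADP/ATP translocase, was 1.45-fold lower. Mitochondrial ribosomal proteins had 19 of 77 lower and 1 higher in WT, 13 and 0 in KO, and 2 and 0 in Mut. Of 36 assembly factors outside the name rule, 7 were lower and 3 higher in WT, 0 and 2 in KO, and 1 and 0 in Mut. Of 18 regulators of mitochondrial biogenesis only Polrmt, the mitochondrial RNA polymerase, was called in WT (15.9-fold lower), 0 in KO, and Gabpa (lower) and Myc (higher) in Mut. The medians of all genes lay at 0, 0.05 and 0.03 in WT, KO and Mut. Of all genes tested, 13.7%, 8.14% and 5.21% were called lower in WT, KO and Mut, and 10.2%, 7.03% and 3.55% higher. The ribosomal proteins in Mut, the assembly factors in KO and Mut, and the regulators in WT and KO fell short of these shares of lower genes.

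Within LSK the sums of the complexes differed by genotype to unequal degrees. Summed over its 4 subunits, complex II was at 873 and 938 CPM in WT, 1161 and 1077 in KO and 1336 and 1266 in Mut. The 15 subunits of complex V were at 4825 and 4658 CPM in WT, 5907 and 5663 in KO and 6082 and 6405 in Mut. For both, the libraries of KO and of Mut lay above those of WT without overlap, by spike-ins too. The 17 subunits of complex IV were at 3674 and 3689 CPM in WT, 4000 and 3520 in KO, and 2982 and 3318 in Mut. Mut lay below WT by TMM but at 1.83 times the WT mean when scaled by spike-ins. The share of spike-ins was 0.139% and 0.0822% of counts in the 2 LSK Mut libraries, which come from the same pool. It was 0.229% and 0.193% in LSK WT, so spike-scaled ratios of LSK Mut are imprecise. Complex I was at 6354 and 6581 CPM in WT and at 6317 and 6709 in Mut, which overlap by TMM and not by spike-ins (2.14 times WT). In MPP, complex II was at 1645 and 1673 CPM in WT, 1553 and 1573 in KO and 1476 and 1510 in Mut, so that KO and Mut lay below WT. Scaled by spike-ins, KO overlapped with WT and Mut lay below it (0.598 times). These sums were not tested.

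**Figure D3:**
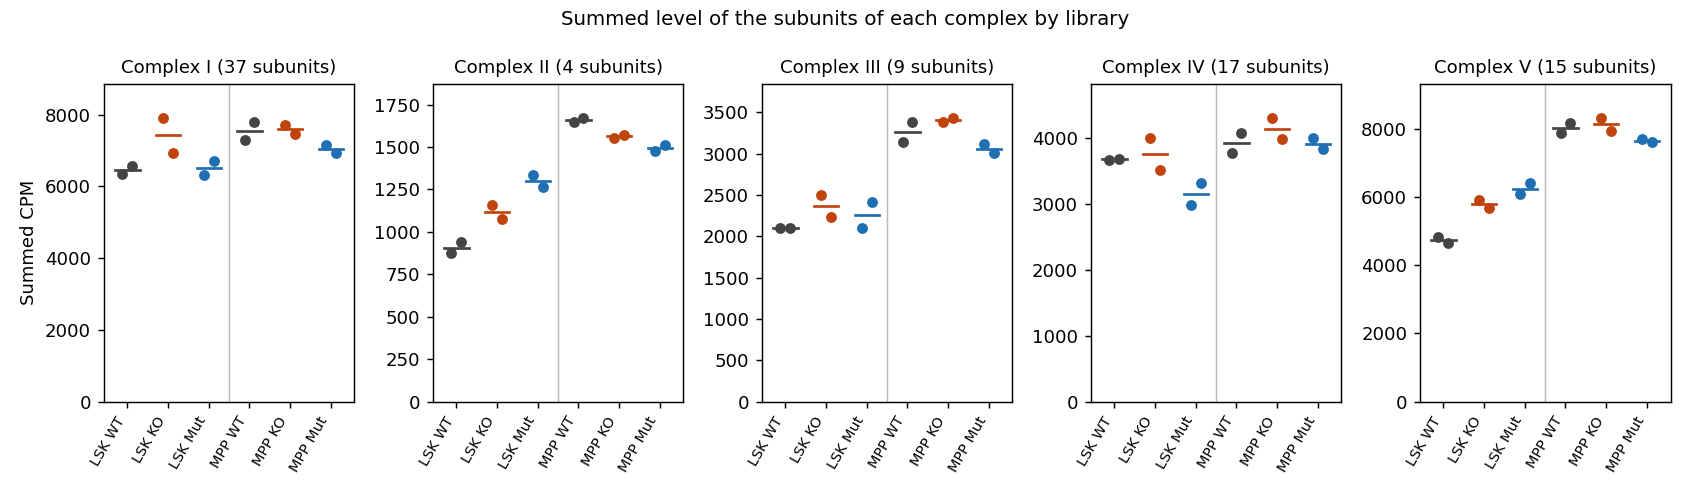
Summed CPM (TMM scaling) of the subunits of each complex in each of the 12 libraries, with the mean of each group as a bar. Complexes II and V lie lowest in LSK WT and highest in MPP, and complex IV lies lowest in LSK Mut (2982 and 3318 CPM). Scaled by spike-ins, complex IV of LSK Mut lies above LSK WT and each complex lies higher in LSK than in MPP.

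LSK Mut against WT was the only genotype comparison in which members were called. Relative to all genes, 4 core subunits were higher in Mut and 2 accessory subunits lower (4.30% and 2.15% of 93 members, against 0.539% and 0.737% of all genes tested). Uqcrc1 was at 557 and 672 CPM in LSK Mut and 312 and 327 in LSK WT (1.90-fold higher, log2 0.92, SE 0.132, edgeR adjusted p = 0.0313). Atp5c1 was at 434 and 535 CPM against 236 and 268 (chr2:10056016-10080510; 1.90-fold, edgeR adjusted p = 0.0392). Both are core subunits. Atp5b was at 1888 and 1886 CPM against 1325 and 1155 (1.5-fold, edgeR adjusted p = 0.0328). Atp5a1, the alpha subunit beside it in the catalytic head, was at 1461 in both Mut libraries against 1032 and 957 CPM (1.45-fold, edgeR adjusted p = 0.0350). All 4 had both Mut values above both WT values, by spike-ins too. Ndufa2 was at 230.3 and 238 CPM in Mut against 455 and 463 in WT (log2 -0.99, SE 0.134, edgeR adjusted p = 0.0296). Cox6c, a small subunit of complex IV with near copies, was at 323 and 342 CPM against 541 and 526 (log2 -0.70, SE 0.113, edgeR adjusted p = 0.0392). Both were lower without overlap, but scaled by spike-ins, where the median of all genes moved by 1.10, they were higher by 0.11 and 0.41 and not called, and 40 members were called higher and 0 lower. By that scaling 3002 of the 13170 genes tested were called, either way.

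By TMM, of the 17 core subunits tested, 14 had a positive difference in LSK Mut against WT and 3 a negative one, with a median of 0.47, while the 61 other subunits split into 31 positive and 30 negative, where spike-in scaling moved the members' median to 1.19. Over all genes tested the median was 0.01. At an unadjusted p below 0.05 there were 9 higher and 1 lower core subunits, and 6 higher and 8 lower others (9.84% and 13.1% of the 61), where 10.2% of all genes were higher and 8.89% lower. Across the 92 members with an annotated length, the difference correlated with exon length at rho = 0.306 (Spearman; Pearson r = 0.0721), and across 13051 genes at rho = -0.148 (r = -0.0642). These are descriptions across genes of the same 4 libraries, and the part of length in the core subunits' differences was not tested.

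Other values moved with genotype in the same LSK libraries. The granulocyte-monocyte marker list summed to 2075 to 2484 CPM in WT, 4742 to 5041 in KO and 5839 to 6051 in Mut, and Rn45s took 3.67%, 2.49% and 1.04% of counts. Their part in the result was not tested, but 6 members were called without the Rn45s and Lars2 rows too. The call rests on the shared spread: 0 members were called without any single library of LSK KO or LSK Mut, 0 with a spread from only WT and Mut, 22 and 21 without LSK WT replicate 1 and 2, and 20 with DESeq2. Among other genes, Idh2, a mitochondrial isocitrate dehydrogenase, was 1.78-fold higher, Slc25a5 1.68-fold and Polrmt 11-fold. Polrmt is not particular to Mut, since it was also called for the difference of the KO effect between populations (below).

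**Figure D4:**
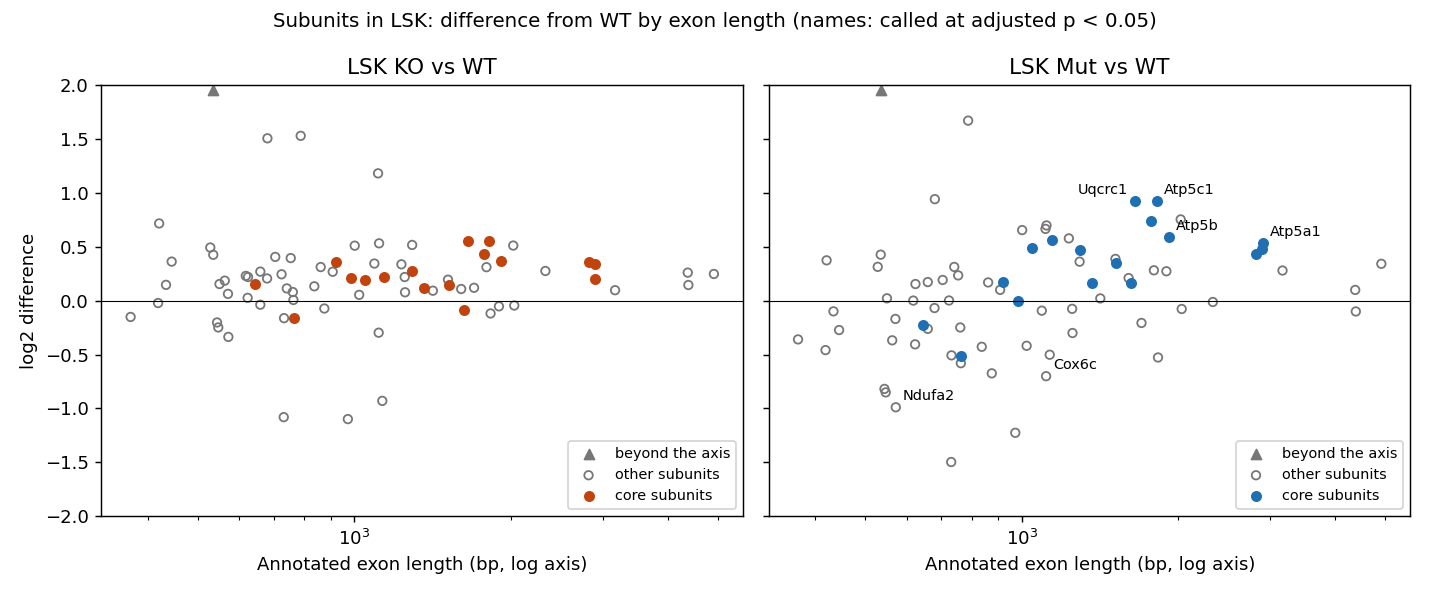
Log2 difference from WT (TMM scaling) of each subunit in LSK KO and LSK Mut against its annotated exon length on a log axis, with core subunits filled, called members named and a triangle for Cox7a1, which lies beyond the axis. In Mut 14 of 17 core subunits lie above 0 and Ndufa2 and Cox6c below; by spike-in scaling the last 2 lie above 0.

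LSK KO against WT called 0 members with edgeR, where 0.0456% of all genes were called. At an unadjusted p below 0.05 there were 18 members (19.4%), 16 of them higher, against 13.8% of all genes, and DESeq2 called 5, all higher (5.38%), against 4.59%. KO and Mut are set against the same WT libraries, so their differences from WT are not independent. Atp5b was at 1597 and 1648 CPM in KO against 1325 and 1155 in WT (log2 0.37, SE 0.0853, edgeR adjusted p = 0.205). Uqcrc1 was at 498 and 452 CPM against 312 and 327 (log2 0.55, SE 0.131, edgeR adjusted p = 0.211), and Atp5j, the coupling factor 6 of the ATP synthase stalk, at 310.4 and 303 against 223 and 196 (log2 0.53, SE 0.134, edgeR adjusted p = 0.228). All 3 had KO above WT without overlap. The negative differences with the smallest p were those of Cox6c (-0.30, edgeR adjusted p = 0.322), Ndufa2 (-0.34, edgeR adjusted p = 0.340) and Cox7c (-0.93, SE 0.567, edgeR adjusted p = 0.512, uncertain by its copies), and by spike-in scaling the first 2 turned positive. The median over members was 0.19, against 0.00 over all genes. Without LSK WT replicate 1 or 2, 6 or 8 members were called, all higher.

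LSK KO against Mut called 0 members with edgeR, where 0.0607% of all genes were called, but 20 members (21.5%) had an unadjusted p below 0.05, against 4.24% of all genes, and DESeq2 called 9 (9.68%) against 0.881%. By TMM, of the 20, 16 were higher and 4 lower in KO, and the 4 were all core subunits. A further 2 core subunits, Cox4i1 (log2 0.36) and Cox5a (0.38), were among the 16. Of the 17 core subunits 13 had a negative difference, with a median of -0.21, and of the 61 other subunits 47 had a positive one, with a median of 0.23, where scaling by spike-ins put the median over all members at -0.44 in place of 0.16. Ndufa2 was at 405 and 332 CPM in KO against 230.3 and 238 in Mut (log2 0.65, SE 0.133, edgeR adjusted p = 0.470). Uqcrh was at 388 and 330.5 CPM against 231 and 242 (log2 0.60, edgeR adjusted p = 0.727), and Ndufb3, an accessory subunit of complex I, differed by 0.59 (edgeR adjusted p = 0.727). Atp5a1 was at 1179 and 1135 CPM in KO against 1461 in both Mut libraries (log2 -0.34, SE 0.0797, edgeR adjusted p = 0.671), Uqcrc1 differed by -0.37 and Atp5b by -0.22 (edgeR adjusted p = 1 for both). The difference correlated with exon length at rho = -0.5 across 92 members and 0.113 across 13051 genes (r = -0.453 and 0.0281). By spike-in scaling the median of all genes moved by -0.59, which put Uqcrh and Ndufb3 at -0.00122 and -0.0223.

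MPP KO against WT called 0 members with edgeR (0.363% of all genes), and 3 (3.23%) had an unadjusted p below 0.05, against 8.47% of all genes. Ndufa12, an accessory subunit of complex I, was at 66.9 and 68.6 CPM in KO against 37.9 and 40.4 in WT (log2 0.79, SE 0.218, edgeR adjusted p = 0.308). Cox7a2, the ubiquitous form of the Cox7a subunit, was at 454 and 434 CPM against 358 and 345 (log2 0.33, edgeR adjusted p = 0.310), and Uqcr11 at 334 and 325 against 268 and 264 (log2 0.30, edgeR adjusted p = 0.423). These 3 did not overlap between the groups. The negative differences with the smallest p were those of Ndufa4 (-0.16), Sdha (-0.18) and Ndufaf1 (-0.47), at edgeR adjusted p = 0.641 to 0.703. DESeq2 called 1 member (1.08%), where it called 2.11% of all genes.

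MPP Mut against WT called 0 members with edgeR (0.224% of all genes), 4 (4.30%) had an unadjusted p below 0.05, all lower, against 9.75% of all genes, and DESeq2 called 1 (1.08%) against 2.36%. Uqcrc1 was at 883 and 891 CPM in Mut against 1016 and 1098 in WT (log2 -0.26, SE 0.067, edgeR adjusted p = 0.268). Sdha, the flavoprotein of succinate dehydrogenase, was at 488 and 560 CPM against 635 and 607 (log2 -0.25, edgeR adjusted p = 0.426), and Ndufaf7, an assembly factor of complex I, at 20.5 and 35.2 against 62.1 and 43.6 (log2 -0.93, edgeR adjusted p = 0.415). The positive ones with the smallest p, Cox4i1 (0.15), Ndufa6 (0.20) and Ndufs4 (0.18), reached edgeR adjusted p = 0.568 to 0.769 and turned negative by spike-in scaling, where the median of all genes moved by -0.59 and 61 members were called, all lower. By that scaling 2297 of the 12947 genes tested were called, either way. The share of spike-ins was 4.89% and 5.15% of counts in MPP Mut against 3.16% to 3.53% in the other MPP libraries.

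MPP KO against Mut called 0 members with edgeR (0.239% of all genes), 5 (5.38%) had an unadjusted p below 0.05, against 9.48%, and DESeq2 called 1 (1.08%) against 2.11%. The 5 were all higher in KO, and 77 of 93 differences were positive, with a median of 0.10 against 0.00 over all genes. Cox7a2 was at 454 and 434 CPM in KO against 363 and 335 in Mut (log2 0.35, edgeR adjusted p = 0.291), and Ndufa12 at 66.9 and 68.6 against 39.3 and 40.3 (log2 0.76, edgeR adjusted p = 0.324). Cyc1 was at 489 and 548 CPM against 423 and 428 (log2 0.29, edgeR adjusted p = 0.375). Ndufaf2 (-0.64), Ndufa6 (-0.28) and Ndufaf1 (-0.33) had the negative differences with the smallest p, and all 3 turned positive by spike-in scaling, where 72 members were called higher and 0 lower. By that scaling 3254 of the 12947 genes tested were called, either way.

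The effect of Mut differed between LSK and MPP for 11 members. Relative to all genes, 8 had a more positive Mut effect in LSK than in MPP (8.60% of the 93 tested, against 1.52% of all genes tested) and 3 a more negative one (3.23% against 1.01%). Put the other way, the log2 difference of LSK from MPP lay nearer 0 in Mut than in WT for these members by TMM, and farther from 0 by spike-ins. For Uqcrc1 the log2 difference of LSK from MPP was -1.72 in WT and -0.53 in Mut, so that the effects differed by 1.20 (SE 0.148, edgeR adjusted p = 0.00349). For Atp5c1 the effects differed by 0.97 (SE 0.165, edgeR adjusted p = 0.0154). Ndufv1, which binds NADH in complex I, was at 269 and 297 CPM in LSK Mut against 181 and 153 in LSK WT, and at 258 and 303 in MPP Mut against 293 and 356 in MPP WT (0.97, SE 0.208, edgeR adjusted p = 0.0357). Atp5j was at 329 and 359 CPM in LSK Mut against 223 and 196, and at 446 and 429 in MPP Mut against 472 and 447 (0.79, edgeR adjusted p = 0.0228). Cox7b (0.78), Sdha (0.74), Atp5b (0.70) and Atp5a1 (0.52) were the other 4.

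Ndufa2 was at 230.3 and 238 CPM in LSK Mut, near the 249.6 to 276 of MPP WT and 263 to 269 of MPP Mut, and its effects differed by -0.99 (SE 0.169, edgeR adjusted p = 0.0156). Uqcrh was at 231 and 242 CPM in LSK Mut against 375 and 466 in LSK WT, and at 254 and 242 in MPP Mut against 232 and 235 in MPP WT (-0.92, SE 0.187, edgeR adjusted p = 0.0290). Cox4i1 was at 712 and 770.1 CPM in LSK Mut against 1089 and 1007 in LSK WT, and at 910.2 and 844 in MPP Mut against 757 and 822 (-0.65, SE 0.133, edgeR adjusted p = 0.0290). By spike-in scaling, where the median of all genes moved by 1.74, these 3 turned positive (0.68, 0.74 and 1.04) and 73 members were called, all positive. Of the 14033 genes tested 5428 were then called, either way. The count of 11 was 3 and 2 without LSK Mut replicate 1 and 2, 3 and 2 without MPP WT replicate 1 and 2, 6 without MPP KO replicate 1 or 2, 2 without MPP Mut replicate 1 or 2, and 1 with a spread from only the 4 groups. Of the members given with values, Uqcrc1 kept its call without each of the 12 libraries in turn, while Atp5c1 and Ndufa2 lost theirs without 5, Atp5j without 6, Uqcrh and Cox4i1 without 8 and Ndufv1 without 10. Suclg1, Idh2 and Idh3g of the tricarboxylic acid cycle were called with positive differences too (1.21, 0.96 and 0.92), as were Slc25a5 (0.92), Polrmt (3.70) and the mitochondrial ribosomal proteins Mrps22 (4.02) and Mrpl45 (1.72). Cox17, a copper chaperone of complex IV assembly (-1.10, edgeR adjusted p = 0.0377), and Gabpa (-1.82, edgeR adjusted p = 0.0382) were called with negative ones, of which that of Cox17 turned positive by spike-in scaling.

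**Figure D5:**
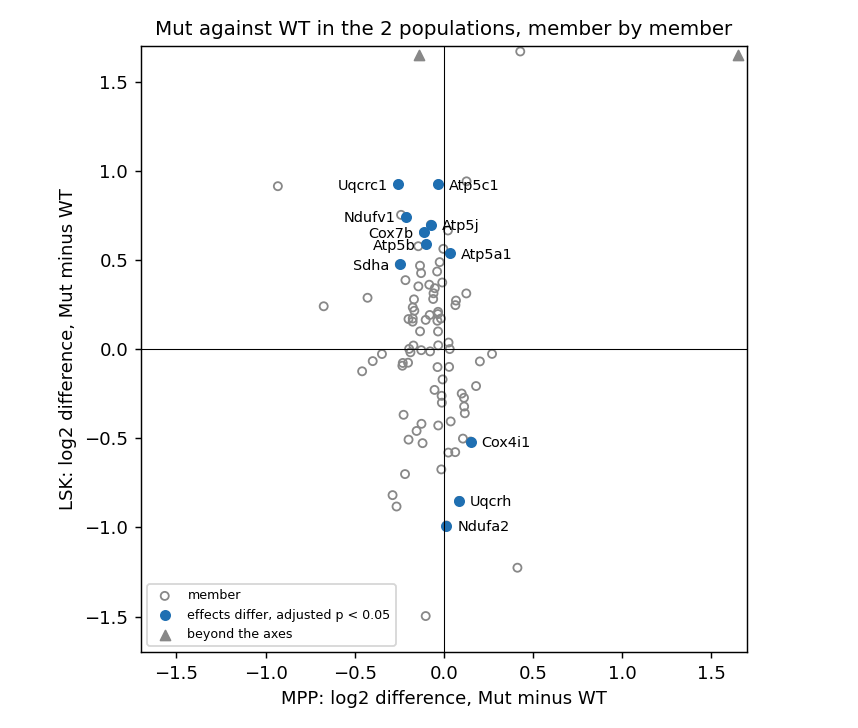
Log2 difference of Mut from WT in LSK (vertical) against that in MPP (horizontal) for each member, TMM scaling, with the 11 members whose effects differed filled and named. Cox7a1 and Ndufaf1 are triangles because they lie beyond the axes. The filled members spread from -0.99 to 0.92 in LSK and stay between -0.26 and 0.15 in MPP; by spike-in scaling the 3 below turn positive.

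The effect of KO differed between the populations for 0 members with edgeR (0.727% of all genes), while 16 (17.2%) had an unadjusted p below 0.05, against 12.4% of all genes, and DESeq2 called 4 (4.30%), all positive, against 4.16%. Uqcrc1 (0.68, SE 0.147, edgeR adjusted p = 0.0701), Atp5b (0.41, edgeR adjusted p = 0.0978) and Sdha (0.53, edgeR adjusted p = 0.154) had the positive differences with the smallest p. Ndufa2 (-0.43), Ndufb4 (-2.08, SE 0.963, uncertain by its copy) and Cox4i1 (-0.26, positive by spike-in scaling) had the negative ones, at edgeR adjusted p = 0.317 to 0.467. Without LSK WT replicate 1 or 2, 7 or 6 members were called, all positive. Outside the members, Polrmt was called for the KO effect as it was for the Mut effect (3.34, SE 0.482, edgeR adjusted p = 0.0230). By spike-in scaling its difference was positive too but not called.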

How the data were processed

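RNA of 6 groups, LSK and MPP cells of 3 genotypes with 2 libraries each, was sequenced as 150-base pairs after ERCC spike-ins were added, per the labels' protocols. The submitters' processing notes name Trim Galore 0.4.1, TopHat2 2.0.13, HTSeq 0.6.1, Cufflinks and mm10. The authors deposited raw read counts per gene in a table for each population. Whether counting used strand is not given in the sources used here, and reads of near-identical copies may be split or dropped. The members, the gene lists and the tests were chosen with earlier results of these data known.

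The tables were joined by symbol, and the 92 spike-in rows were left out of library sizes. edgeR 4.0.16 (R 4.3.3) tested counts with TMM scaling, a filter by group (minimum count 10, minimum total 15) and two-sided quasi-likelihood tests, adjusted by Benjamini-Hochberg over 13170 genes in LSK, 12947 in MPP and 14033 over both. Genotypes were compared within a population (3 residual degrees of freedom), and populations over the 12 libraries (6). The replicates are technical, so p-values measure the spread between libraries. CPM values use the scaling over 12 libraries and give counts of 0 no interval beyond the floor of 3 counts. Positions and exon lengths are of GRCm38 (GENCODE M21). Of the 98 members 97 were matched, 1 of them by a RefSeq synonym, and Atp5o was not. Copies were found with BLAST+ 2.17.0 at a minimum of 95% identity over at least 80% of the coding sequence, a copy of lower identity over the whole counting too.

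Named in each comparison are up to 6 called members per direction with the largest difference and no overlap between groups (up to 4 for differences between effects), or, with fewer than 2 such members, the 3 with the smallest unadjusted p. For called members named by this rule, a lack of overlap between groups was thus a condition of naming, not a result. The core list and the isoform families are named for their levels. Single values of some genes are not reported here. Members named beyond this rule, such as Atp5b and Atp5f1 in LSK against MPP, were chosen after their values were seen. Alternatives were DESeq2 1.42.0, its size factors, spike-in scaling, no filter, a replicate block, only the groups compared, leaving out Rn45s and Lars2, and leaving out each library in turn. The fits were tested on simulated data. Samples with the same replicate number did not deviate together (correlations of -0.0297 to 0.0186), so the numbers do not pair them.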

Additional observations from a re-analysis of the deposited data

Results flagged for a closer look

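The Mut effect differed between LSK and MPP, by edgeR's test of the difference itself, for 11 members, with 2 libraries per group. The log2 differences of the effects (LSK minus MPP) were 1.20 for Uqcrc1, 0.97 for Atp5c1, 0.97 for Ndufv1, 0.79 for Atp5j, 0.78 for Cox7b, 0.74 for Sdha, 0.70 for Atp5b and 0.52 for Atp5a1. They were -0.99 for Ndufa2, -0.92 for Uqcrh and -0.65 for Cox4i1, and these 3 were positive when scaled by spike-ins.

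Summed over the subunits of complex II, both libraries of KO lay above WT in LSK (1.24 times the WT mean) and below it in MPP (0.942 times). Both Mut libraries did the same (1.44 and 0.9 times). The subunits of complex V in Mut were at 1.32 times WT in LSK and 0.955 times in MPP. These ratios are by TMM. By spike-ins complex II was at 1.72 (KO) and 3.0 (Mut) times WT in LSK and complex V in Mut at 2.8 times, and in MPP complex II was at 0.983 (KO, overlapping WT) and 0.598 (Mut) and complex V in Mut at 0.635. The spike-scaled ratios of LSK Mut are imprecise, as its 2 libraries differ in spike-in share (0.139% and 0.0822% of counts). For these sums the difference between populations was not tested.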

How the results depend on the processing

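Spike-in scaling changed the most: it called 40 members in LSK Mut against WT, 61 in MPP Mut against WT, 72 in MPP KO against Mut, 91, 93 and 93 in LSK against MPP of WT, KO and Mut, and 73 for the Mut effect. In the same order it called 3002, 2297, 3254, 11550, 12011, 12570 and 5428 of all genes tested. The members' median became 0.67, 1.19 and -0.44 in LSK (KO against WT, Mut against WT, KO against Mut), 0.0807, -0.65 and 0.74 in MPP, 3.84, 4.47 and 5.66 between populations, and 0.59 and 1.90 for the KO and Mut effects. Directions reversed in LSK KO against WT for Cox6c (0.21) and Ndufa2 (0.16), in LSK Mut against WT for Ndufa2 (0.11) and Cox6c (0.41), and in LSK KO against Mut for Uqcrh (-0.00122) and Ndufb3 (-0.0223). In MPP they reversed for Cox4i1 (-0.44), Ndufa6 (-0.39) and Ndufs4 (-0.40) in Mut against WT, and for Ndufaf2 (0.000987), Ndufa6 (0.37) and Ndufaf1 (0.32) in KO against Mut. Between populations they reversed in WT for Ndufaf1 (1.58), Uqcrc1 (2.47), Cox7b (2.72), Ndufa10 (2.79), Atp5c1 (2.93) and Cyc1 (2.94), in KO for Cyc1 (3.39), Atp5g1 (3.54), Cox7b (3.57), Uqcrc1 (3.57), Ndufa10 (3.74) and Uqcrc2 (3.77), and in Mut for Cyc1 (5.15), Atp5g1 (5.17), Cox7b (5.20), Uqcrq (5.24), Uqcr11 (5.31) and Uqcrc1 (5.36). Effects reversed for Cox4i1 (0.17) of KO and for Ndufa2 (0.68), Uqcrh (0.74) and Cox4i1 (1.04) of Mut. The cause was not tested. DESeq2 called 5 members in LSK KO against WT, 20 in LSK Mut against WT, 9 in LSK KO against Mut, 1 in each MPP comparison, 17 in LSK against MPP of Mut, 4 for the KO effect and 19 for the Mut effect. Without a filter, 11 members were called in LSK Mut against WT and 1 for the KO effect. A spread from only the groups compared left 0 members in LSK Mut against WT, 14 in LSK against MPP of WT and 1 for the Mut effect, with fewer libraries to estimate it. With a replicate block, for numbers that do not pair the libraries, 0 members were called in LSK Mut against WT and 7 for the Mut effect, and no other count moved beyond 1.5 times. Leaving out each library in turn gave 0 to 8 members in LSK KO against WT, 0 to 22 in LSK Mut against WT, 21 to 42, 11 to 30 and 2 to 15 between populations (WT, KO, Mut), 0 to 7 for the KO effect and 2 to 16 for the Mut effect. The medians then ranged from 0.0915 to 0.26, -0.0266 to 0.14 and 0.0523 to 0.20 in LSK, -0.0347 to 0.0748, -0.12 to -0.0196 and 0.0829 to 0.14 in MPP, -0.40 to -0.24, -0.23 to -0.0543 and -0.28 to -0.15 between populations, and 0.0875 to 0.24 and 0.15 to 0.28 for the effects. The summed CPM of members in LSK WT was 19050 with DESeq2's size factors and 19353 on the plain total, which also gave 21746 for LSK Mut and 23407, 24566 and 22573 for MPP of WT, KO and Mut; both were chosen after seeing the data. DESeq2's size factors and leaving out Rn45s and Lars2 changed no direction or call of the 81 named values. Depth limits members of few counts, such as Ndufaf1 and Cox7c, and 2 libraries limit every group.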
